A study of Rattus norvegicus with 8 samples.

Results

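The metabotropic glutamate receptors examined here were Grm2 to Grm8, taken as every probe set that the platform annotation assigns to exactly 1 of these 7 genes. They made up 7 of the 13810 genes with such a probe set in the series and were read by 11 of the 15866 tested probe sets of chip A and by 0 of the 15276 of chip B, so that all receptor values below come from the 4 chip A arrays. Grm6 and Grm8 had 3 probe sets each and the other genes 1 each. The cells were rat brain cells taken at postnatal day 7 by flow cytometry for both A2B5, an epitope on gangliosides of glial precursors, and the marker OTMP, and the labels call them perineuronal oligodendrocytes, which lie against neuronal cell bodies. Each of 4 biological replicates was hybridized to an array of both types (8 samples). The series holds this 1 population with no control group, and no source used here gives the rat strain, the sex or the number of animals per replicate. The p-values therefore measure only the spread between these 4 samples, which may be in part technical.

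Metabotropic glutamate receptors are G-protein-coupled receptors with a large extracellular domain that closes on glutamate. Group I receptors, here Grm5, couple to Gq and phospholipase C. Group II receptors, Grm2 and Grm3, and group III receptors, Grm4, Grm6, Grm7 and Grm8, couple to Gi and Go and lower cyclic AMP. In brain Grm3 is known from astrocytes as well as neurons, Grm5 from neurons and young astrocytes, and Grm4, Grm7 and Grm8 mostly from presynaptic terminals. Grm6 is known from ON bipolar cells of the retina.

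Every value is a ratio of signal to an unnamed reference, set for each probe set, so a ratio of 1 means the same signal as that reference. Such a ratio gives neither the brightness of a receptor nor the order of 2 receptors by expression. Ratios were analysed as log2 values, where 0 is a ratio of 1, and are summarised as the mean ± SD over the 4 replicates (n = 4). Each probe set was tested against 0 with limma, a linear model with a variance shared in part across probe sets, and p-values were adjusted over all probe sets of chip A by the Benjamini-Hochberg method with a threshold of 0.05.

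The receptors fell into 3 kinds. Grm3 was far higher than its reference, Grm2 and a pair of Grm8 probe sets lay near it, and Grm4, Grm5, Grm6, Grm7 and the other Grm8 probe set lay below it. Of the 11 probe sets 1 was called higher and 7 were called lower. On chip A as a whole 9.21% of probe sets were called higher and 30.1% lower (11.8% and 23.3% with each array centred on its median), and in a panel of genes typical of other organs (protamines, digestive enzymes, milk proteins and the like) 67 of 125 probe sets, or 53.6%, were called lower and 0 higher. The median over the 11 receptor probe sets was -0.82, against -0.11 over all tested probe sets of chip A.

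**Figure D1:**
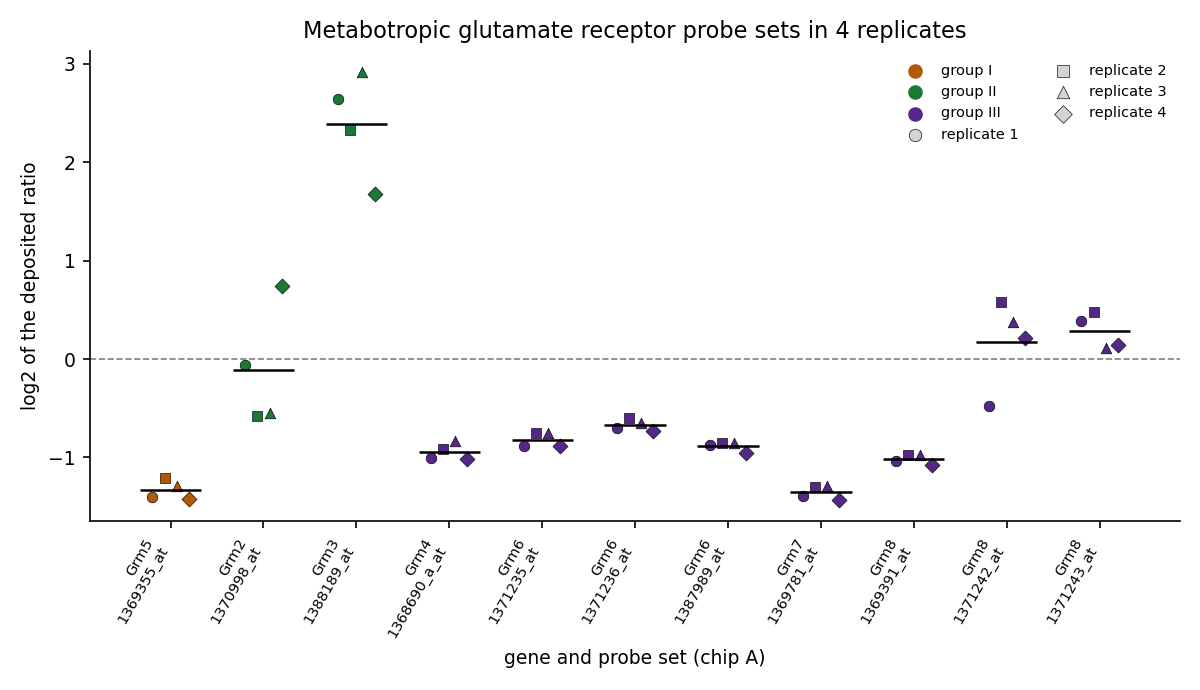
Log2 of the deposited ratio (vertical axis) of each receptor probe set (horizontal axis) on the 4 chip A arrays, with colours for receptor groups, symbols for replicates, a black line at the mean and a dashed line at a ratio of 1. Grm3 lies above the other receptors in every replicate, and the 7 probe sets called lower span narrow ranges below the dashed line.

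Grm3, the group II receptor that also answers to the peptide transmitter N-acetylaspartylglutamate, had ratios of 6.262, 5.021, 7.551 and 3.196 in replicates 1 to 4. All 4 arrays were well above the reference, with replicate 4 the lowest and replicate 3 the highest. The mean log2 ratio was 2.39 ± 0.53 (n = 4, 95% confidence interval 1.86 to 2.92, limma adjusted p = 0.000609), which is a geometric mean ratio of 5.25. This mean exceeded that of 99.7% of the single-gene probe sets on chip A. Grm3 was also higher when the panel of other organs set the level: it stood 2.20 above the panel's 95th percentile on the log2 scale (limma adjusted p = 7.64e-05), a level above which 6.11% of chip A probe sets were called and below which 47.2% were.

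Grm2, the other group II receptor and mostly a presynaptic autoreceptor, had ratios of 0.956, 0.667, 0.682 and 1.671. Replicate 4 was above the reference, replicates 2 and 3 were below it and replicate 1 was close to it. The mean log2 ratio of -0.12 ± 0.62 did not differ from 0 in limma (n = 4, 95% confidence interval -0.72 to 0.49, adjusted p = 0.741). An interval of this width leaves ratios from 0.607 to 1.40 possible. The spread of Grm2 was wider than that of 96.0% of tested probe sets, and the sign of its mean turned when replicate 2 or 3 was left out (0.041 and 0.031) and when arrays were centred on their medians (0.0031).

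Grm5, the group I receptor, had ratios of 0.379, 0.431, 0.409 and 0.373 in replicates 1 to 4. No array came near a ratio of 1. The mean log2 ratio was -1.33 ± 0.10 (n = 4, limma adjusted p = 0.000134), lower than all but 2.28% of single-gene probe sets.

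Among the group III receptors, Grm7, a receptor of presynaptic active zones, was lowest, with ratios of 0.381, 0.405, 0.408 and 0.370 and a mean log2 ratio of -1.36 ± 0.07 (n = 4, limma adjusted p = 0.000113). Its 4 values were almost those of Grm5. Grm4, known from terminals of cerebellar granule cells, had ratios of 0.497, 0.529, 0.562 and 0.493 and a mean of -0.94 ± 0.09 (n = 4, limma adjusted p = 0.000304). The 3 probe sets of Grm6 gave mean log2 ratios of -0.67 ± 0.06, -0.82 ± 0.07 and -0.88 ± 0.05 (n = 4 each), with single ratios between 0.515 and 0.658, and all were called lower (limma adjusted p from 0.000287 to 0.000806). For Grm6, then, the different probe sets gave like values.

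The 3 Grm8 probe sets did not. The probe set 1369391_at, annotated to the RefSeq transcript, had ratios of 0.486, 0.508, 0.510 and 0.473 and a mean log2 ratio of -1.02 ± 0.05 (n = 4, limma adjusted p = 0.000188). The other Grm8 probe sets, both annotated to 1 other database entry, lay near or above the reference: 1371242_at had ratios of 0.720, 1.492, 1.296 and 1.156 and a mean of 0.17 ± 0.46 (n = 4, limma adjusted p = 0.507), and 1371243_at had 1.311, 1.396, 1.078 and 1.105 and a mean of 0.28 ± 0.18 (n = 4, 0.0606). Every value of 1369391_at lay below every value of the other Grm8 probe sets. With each array centred on its median, which raised log2 ratios by about 0.12, 1371243_at was called higher (0.40, limma adjusted p = 0.0273). That call is made for 11.8% of chip A probe sets. The Grm8 probe sets therefore give no common value, and whether its probe sets read different transcripts was not tested.

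**Figure D2:**
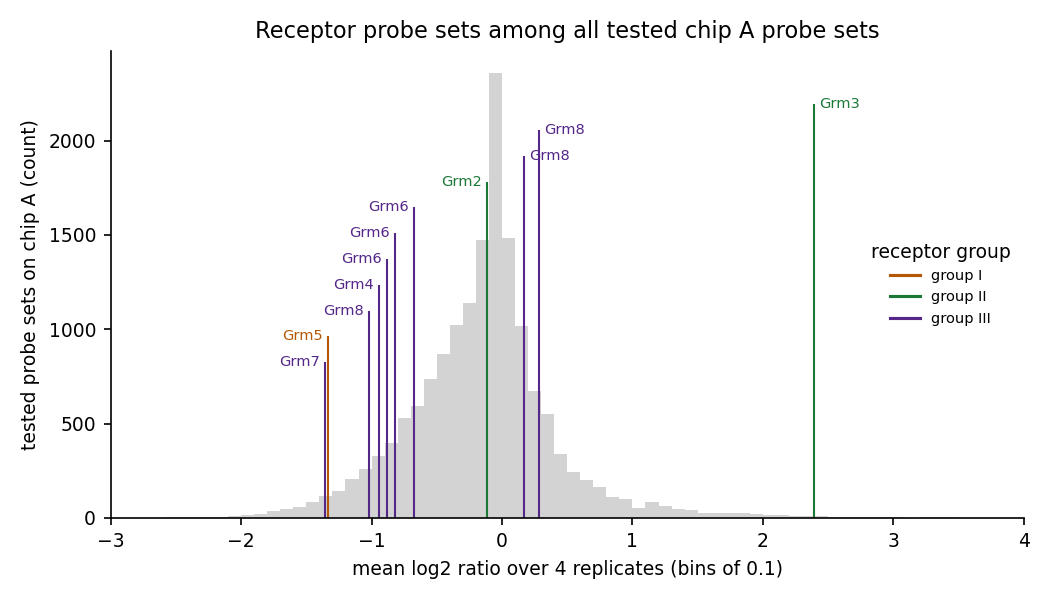
Count of tested chip A probe sets (vertical axis) by mean log2 ratio over the 4 replicates (horizontal axis, bins of 0.1), with coloured lines at the receptor probe sets. The line heights are staggered for the labels and carry no value. Grm3 lies in the far right tail at 2.39, and Grm5 and Grm7 lie in the left tail at -1.33 and -1.36.

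The 7 receptor probe sets called lower ran an even and parallel course over the arrays. Their SDs ran from 0.05 to 0.10 on the log2 scale with a median of 0.069, while those of the 4 other receptor probe sets were 0.18 to 0.62. A call favours a small SD, and other low probe sets were also even: the median SD was 0.089 over the 2065 chip A probe sets with means in the same range, 0.11 over all that were called lower, 0.076 in the panel of other organs and 0.21 over all tested. In 7 of 7 the ratios in replicates 2 and 3 both exceeded those in replicates 1 and 4. The same order held for 34.3% of all tested probe sets, for 65.0% of those 2065, for 73.6% of the panel of other organs and for 26 of 27 Bacillus subtilis control probe sets, which match bacterial genes. The array medians had this order as well, at 0.903, 0.930, 0.946 and 0.907 in replicates 1 to 4. Centring on these medians lowered the median SD of the 7 probe sets to 0.042, against 0.069 without centring, and left all 7 called lower (limma adjusted p from 0.000141 to 0.00107), a call made for 23.3% of chip A probe sets by that test.

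The control with the lowest ratios, AFFX-r2-Bs-thr-M_s_at, is given as the one among 27 that came nearest to Grm7, the lowest receptor. It had ratios of 0.386, 0.411, 0.405 and 0.381, within 0.02 of those of Grm5 and within 0.011 of those of Grm7 on every array. From the other 5 receptor probe sets called lower it was up to 0.105 (Grm8), 0.157 (Grm4) and 0.16 to 0.247 (Grm6) away. Another control, AFFX-r2-Bs-thr-3_s_at, with 0.388, 0.417, 0.413 and 0.382, was nearer to Grm5. Over all 27 controls the ratios ran from 0.381 to 1.077, and over the 7 receptor probe sets from 0.370 to 0.658. Ratios do not show whether the receptor probe sets called lower detected their transcripts.

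**Figure D3:**
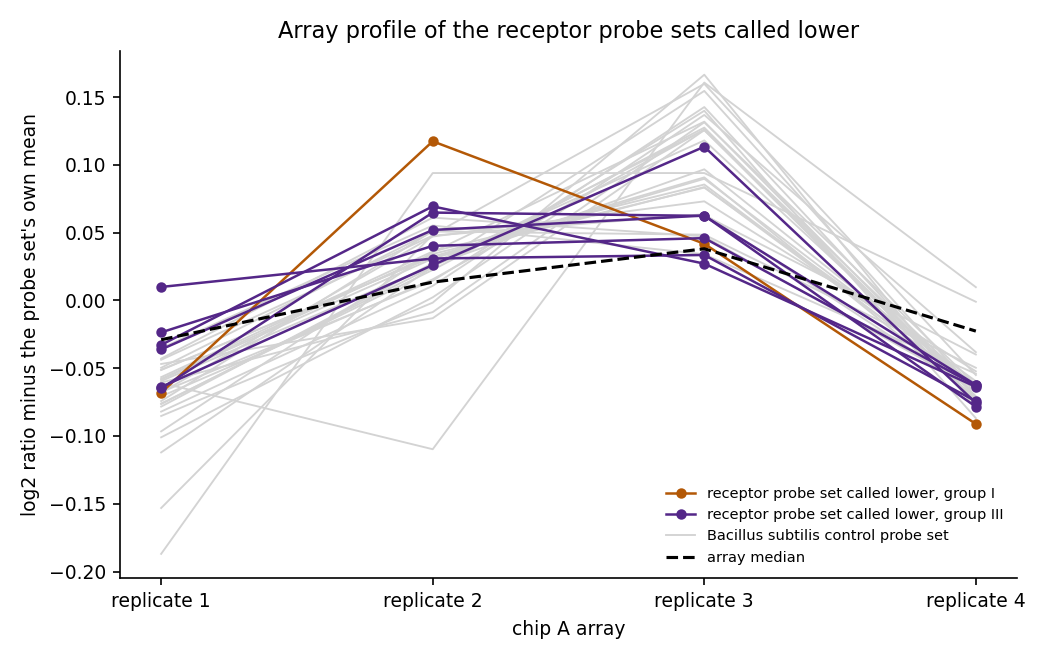
Log2 ratio minus the probe set's own mean (vertical axis) on the 4 chip A arrays (horizontal axis) for the 7 receptor probe sets called lower, 27 Bacillus subtilis control probe sets and the array median, with lines joining the values of 1 probe set. Replicates have no order. The receptor lines lie higher in replicates 2 and 3 than in replicates 1 and 4, as do 26 of the 27 control lines.

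The promoters of the pair of receptors with the lowest ratios are shown because their values ran almost together while their sequences differ in base composition. Sequences are from RefSeq (GRCr8), in windows of 300 bases around an annotated start. The table held such a window for 4 of the 7 genes (Grm5, Grm6, Grm7 and Grm8). Capitals mark matches on either strand to GGGCGG (an Sp1 box) or CAGCTG (an E-box). The windows lie at chr1:150733503-150733802, plus strand, for Grm5, and at chr4:145286476-145286775, plus strand, for Grm7.
Grm5: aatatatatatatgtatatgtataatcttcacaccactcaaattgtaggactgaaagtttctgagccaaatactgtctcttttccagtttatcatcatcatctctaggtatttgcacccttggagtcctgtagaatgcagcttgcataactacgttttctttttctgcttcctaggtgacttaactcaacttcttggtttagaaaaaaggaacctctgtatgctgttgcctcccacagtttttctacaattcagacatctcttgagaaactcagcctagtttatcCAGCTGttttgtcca
Grm7: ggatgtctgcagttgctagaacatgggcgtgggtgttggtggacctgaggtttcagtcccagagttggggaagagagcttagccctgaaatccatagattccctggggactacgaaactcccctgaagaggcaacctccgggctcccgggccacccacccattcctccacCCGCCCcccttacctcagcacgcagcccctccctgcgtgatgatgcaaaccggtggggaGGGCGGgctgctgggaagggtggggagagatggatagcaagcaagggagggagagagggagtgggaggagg

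The Grm7 window had 62.0% G and C with 9 CpG dinucleotides, and the Grm5 window 37.3% with 1. The median over 33469 promoter windows of the same length was 51.7% with 7 CpG. GGGCGG occurred at 2 places in the Grm7 window and at 0 in the Grm5 window, and in 33.1% of all windows. CAGCTG occurred once in the Grm5 window and in that of Grm6, and in 15.1% of all windows. Neither TGACG (a cyclic AMP response half-site, in 21.2% of windows) nor TATAAA (in 14.2%) was found in the 4 receptor windows. These are matches of letters, which show no binding.

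The receptors were next compared with each other inside each replicate, so that shifts of a whole array cancel. A gene with several probe sets entered as their median on each array. For Grm8 this median lies between discordant probe sets, so its main comparisons are also given with its lowest probe set, 1369391_at. Of 21 pairs of receptor genes 19 differed with the same sign in all 4 replicates, 12 of 14 between receptor groups and 7 of 7 within them. The share of pairs of other chip A genes with a constant sign was not computed. The count is therefore not shown to be particular to the receptors. With the lowest probe set of Grm6 and Grm8 the count was again 19, but only 18 pairs were shared, of which 16 kept their order. Grm8 was then below Grm2, Grm4 and Grm6 in all 4 replicates, by 0.90, 0.073 and 0.13 on average, while with the median it was above all 3 on average, and Grm6 minus Grm4 lost its constant sign. With 4 replicates the exact two-sided sign-flip test cannot give a p under 0.125, and adjusted over the 21 pairs the smallest was 0.138, so that no pair could pass the threshold. A difference between ratios says which gene stood further from its own reference, not which was expressed more.

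Grm3 exceeded each of the other 6 receptors in every replicate. Against Grm5, across groups II and I, its log2 ratio was greater by 4.05, 3.54, 4.21 and 3.10 in replicates 1 to 4 (mean difference 3.72 ± 0.50, n = 4, exact p = 0.125). Against Grm8, the nearest group III gene, the differences were 3.12, 1.85, 2.81 and 1.53 (2.33 ± 0.76), or 3.41 ± 0.50 on average with 1369391_at. Against Grm2, its partner in group II, they were 2.71, 2.91, 3.47 and 0.94 (2.51 ± 1.10). The smallest of these differences, in replicate 4, goes with the highest Grm2 and the lowest Grm3 ratio.

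Grm5 and Grm7 were the closest pair of all, although they belong to groups I and III. They differed by -0.0076, 0.090, 0.0035 and 0.012 (Grm5 minus Grm7, mean 0.024 ± 0.044, n = 4, exact p = 0.375), and a p of this size does not show that they were equal. Grm8 and Grm2 were the other pair without a constant sign, with differences of -0.41, 1.07, 0.66 and -0.60 (Grm8 minus Grm2, mean 0.18 ± 0.81, n = 4, exact p = 0.625), but with 1369391_at Grm2 was the higher in every replicate. The pairs among Grm4, Grm5, Grm6 and Grm7 had the smallest SDs, 0.016 to 0.068. These genes are among those with the parallel course over the arrays described above.

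As receptor groups, averaged over their genes, group II stood at 1.29, 0.87, 1.18 and 1.21 on the log2 scale in replicates 1 to 4, group III at -0.94, -0.62, -0.69 and -0.80, and group I, which is Grm5 alone, at -1.40, -1.21, -1.29 and -1.42. These averages did not overlap, but the genes within them did. On average Grm7 of group III (-1.36) lay below Grm5 of group I (-1.33). Grm8 of group III, at the median of its probe sets (0.065), lay above Grm2 of group II (-0.12). With 1369391_at, Grm2 was the higher by 0.90 on average, so this overlap of groups II and III rests on the other Grm8 probe sets. The mean difference was 2.47 ± 0.27 for group II minus group I, 1.90 ± 0.31 for group II minus group III and -0.57 ± 0.07 for group I minus group III (SD over the 4 replicates). With the lowest probe sets the last of these was -0.28 ± 0.05, and group II minus group III was 2.19 ± 0.22. No test was made on these averages, since receptor genes are not replicates of a group. The place of group II rested on Grm3: with Grm2 alone, group II minus group III was 0.87, 0.040, 0.14 and 1.54. Within group III, Grm6 and Grm4 exceeded Grm5 by 0.52 and 0.39 on average, and Grm7 differed from it by 0.024. Grm8 exceeded Grm5 by 1.40 with the median of its probe sets and by 0.31 with 1369391_at.

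**Figure D4:**
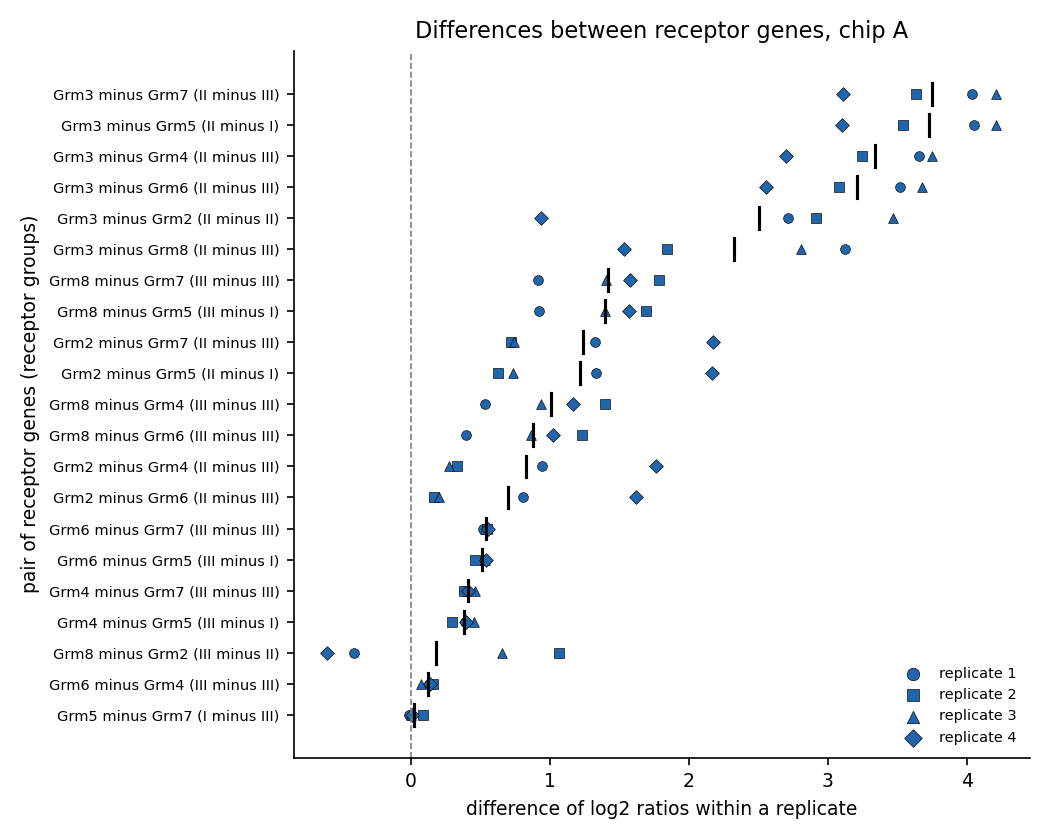
Difference of log2 ratios (horizontal axis) within each replicate for the 21 pairs of receptor genes (vertical axis, with receptor groups; genes with several probe sets at their median), with symbols for replicates, a black bar at the mean and a dashed line at 0. The 6 pairs with Grm3 have the largest mean differences, from 2.33 to 3.75, and the 4 symbols of Grm5 minus Grm7 lie at 0 or close to it.

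Genes that signal with these receptors were examined as lists. The list for group I (Gq subunits, phospholipase C beta isoforms, the IP3 receptor, protein kinase C and the Homer and Shank scaffolds) had 25 probe sets for 16 genes on both array types, of which 2 were called higher, 5 lower and 18 neither. On chip B, which holds 2 of these probe sets, 5.08% of all probe sets were called higher and 27.1% lower. On chip A the shares were 9.21% and 30.1%. The list's median was 0.04. Shank1, a postsynaptic scaffold, had the lowest value, -1.53 ± 0.05 on chip A (n = 4, limma adjusted p = 9.94e-05), but its other probe sets stood at 0.05 ± 0.18 on chip A and 0.75 ± 0.37 on chip B. Homer2, which binds group I receptors, stood at -0.93 ± 0.23 (n = 4, limma adjusted p = 0.00156), and 1 of the Shank2 probe sets at 0.60 ± 0.40 (0.0351). All 5 Homer1 probe sets of the chip were called neither, with means from -0.032 to 0.23. Nor was Plcb1, a phospholipase C of this pathway, called, at 0.34 ± 0.34 (n = 4, limma adjusted p = 0.118).

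The list for groups II and III (Gi and Go subunits, adenylyl cyclases, G-protein-gated potassium channels, regulators and partners) held 35 probe sets (19 genes). Of these 5 were called higher, 7 lower and 23 neither, with a median of 0.02. On chip A, which holds 33 of them, 9.21% of all probe sets were called higher and 30.1% lower. Adcy8, a calmodulin-stimulated adenylyl cyclase, had ratios of 11.92, 7.807, 15.55 and 7.967 in replicates 1 to 4, all above those of Grm3 on the same arrays. Rgs7, which speeds the shut-off of Gi and Go proteins, had ratios of 5.514, 5.911, 2.913 and 5.444 (mean log2 ratio 2.25 ± 0.48, n = 4, limma adjusted p = 0.000521), and Adcy2, another cyclase, 4.384, 3.058, 3.961 and 3.400 (1.87 ± 0.23, 0.00015). Kcnj9, a subunit of the G-protein-gated potassium channels, was low on chip B at -1.48 ± 0.05 (n = 4, limma adjusted p = 6.27e-05), while its chip A probe set stood at 0.028 ± 0.16 without a call. Adcy6, a calcium-inhibited cyclase, had 1 probe set called higher (0.40 ± 0.25) and 1 called lower (-0.98 ± 0.05).

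For N-acetylaspartylglutamate, the peptide that acts on Grm3, 11 probe sets covered 8 genes of its synthesis, transport and breakdown. They were 7 on chip A, where 9.21% of all probe sets were called higher and 30.1% lower, and 4 on chip B (5.08% and 27.1%). In this list 1 was called higher, 1 lower and 9 neither. The higher one was Folh1, the peptidase that splits this peptide into N-acetylaspartate and glutamate, with ratios of 4.661, 3.180, 4.424 and 3.848 (mean log2 ratio 1.99 ± 0.25, n = 4, limma adjusted p = 0.000145). Its second probe set had 1.341, 2.820, 2.066 and 1.002 and was not called (0.74 ± 0.66, limma adjusted p = 0.072). Aspa, which breaks down N-acetylaspartate and is known from oligodendrocytes, was the lower one, with ratios of 0.376, 0.276, 0.452 and 0.357 (-1.48 ± 0.29, n = 4, 0.000547). The synthetases Rimkla and Rimklb stood between -0.39 and -0.037 without a call.

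The retinal partners of Grm6 were measured by 5 probe sets for 4 of the 9 listed genes. Of these probe sets 0 were called higher, 2 lower and 3 neither. Both low calls were on chip A, where 30.1% of all probe sets were called lower. Trpm1, the channel that Grm6 controls in ON bipolar cells, had ratios of 0.569, 0.583, 0.609 and 0.537 and was called lower (-0.80 ± 0.08, n = 4, limma adjusted p = 0.000485), with values close to those of Grm6 itself. The G-protein subunit gene Gnb3 was lower on chip A (-1.01 ± 0.10, n = 4, 0.00027) and was not called on chip B (0.22 ± 0.17, 0.102). The probe sets of Gnb5 and Gng13, further G-protein subunits, stood at 0.014 ± 0.28 and -0.018 ± 0.021 without a call.

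**Figure D5:**
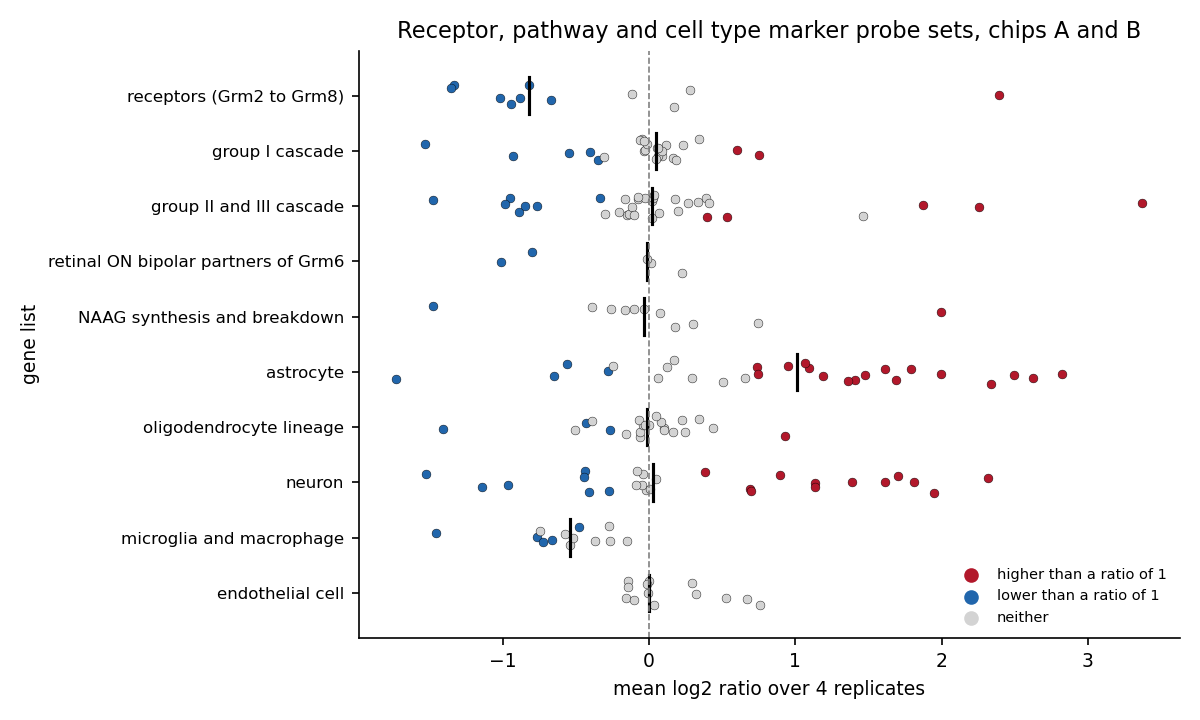
Mean log2 ratio over 4 replicates (horizontal axis) of each probe set of the receptor, pathway and cell type marker lists (vertical axis), coloured by the limma call against a ratio of 1, with a black bar at each list's median. The receptor list has 1 probe set called higher and 7 lower, and the astrocyte list 17 higher and 4 lower. The oligodendrocyte lineage list has 1 higher and 3 lower. Over all probe sets 9.21% of chip A and 5.08% of chip B were called higher, and 30.1% and 27.1% lower.

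The probe sets closest to Grm3, by mean absolute difference of log2 ratios over the 4 chip A arrays among 12782 single-gene probe sets, were a pair for Nrcam, a neuronal and glial adhesion molecule, at 0.16 and 0.27, and that of Aldh1l1, an astrocyte enzyme of folate metabolism, at 0.23. Nrcam had ratios of 7.091, 4.970, 7.022 and 4.089 in its closer probe set, and Aldh1l1 7.530, 6.392, 6.310 and 3.337. None lay within 0.1 of Grm3. Grm7 had 169 probe sets within 0.1, of which Csnk1e, Smg5 and Sema6c were closest at 0.0054, 0.0085 and 0.0092. These counts are not comparable, since the SD was 0.53 for Grm3 and 0.07 for Grm7. Chip A also had 10 tested probe sets with a mean from 2.3 to 2.4, but 115 from -1.4 to -1.3.

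Astrocyte markers also stood high in these samples. Of 28 astrocyte probe sets for 16 genes 17 were called higher and 4 lower, with a median of 1.01, and on chip A the list's median ratio was 2.04, 1.69, 2.34 and 1.92 in replicates 1 to 4. Neuron markers had 12 of 26 probe sets called higher and 7 lower, with a median of 0.027. The lower calls included Sox9 (-1.73, chip B) among astrocyte markers and every Camk2a probe set (-1.53 to -0.27) among neuron markers. Over all probe sets 9.21% of chip A and 5.08% of chip B were called higher. The shares called lower were 30.1% and 27.1%, so low calls were common on both array types. Of 22 oligodendrocyte lineage probe sets 1 was higher (Pdgfra) and 3 lower, with a median of -0.016. Of 13 for microglia and macrophages 0 were higher and 5 lower (median -0.54), and of 13 for endothelial cells 0 were called (median -0.0044). By largest absolute mean log2 ratio, the leading astrocyte markers were Aqp4 (2.82, other probe sets 1.36 and 1.10), Slc4a4 (2.62, other probe set 1.79) and Aldh1l1 (2.50). The leading neuron markers were Gad1 (2.32, other probe set -0.97), Reln (1.95, other probe set 1.62) and Elavl4 (1.81). Those of the lineage list were Cldn11 (-1.41, other probe set 0.16 and not called), Pdgfra (0.93) and Ugt8 (-0.51 and not called, other probe set -0.27 and called lower). Those of microglia were Cd14 (-1.46), C1qb (-0.77) and Cx3cr1 (-0.75, not called), and those of endothelium Slco1a4 (0.76), Tek (0.67) and Vwf (0.53), none of them called. Lineage and myelin markers thus mostly stood near their own references. Ratios to an unknown reference cannot show whether such markers were strongly expressed or absent, and so do not test the labelled cell type. Whether astrocytes or neurons in the sort, or the sorted cells themselves, gave the Grm3 signal was not tested, and in such sorted samples more cells of a type and more RNA per cell cannot be told apart.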

How the data were processed

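Total RNA of 4 replicates was labelled with biotin by an Affymetrix small-sample protocol, per the labels' protocols, and hybridized to chip A and chip B. RMA made the values, per the submitters' processing notes, which give no version. The deposited values are linear ratios, and how the authors formed the ratio from RMA signals, its reference and any floor are not given in the sources used here. Quantile normalization in RMA and the reference can shift all ratios of an array, so centring is an alternative. The tests excluded 57 control probe sets per type. Across probe sets, chip A arrays had pairwise correlations of 0.716 to 0.792, and no arrays were identical. The number of arrays limits precision.

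Log2 ratios were fitted per array type in limma 3.58.1 (R 4.3.3; intercept, eBayes, two-sided, Benjamini-Hochberg at 0.05) and the fit was tested on simulated data. Pairs of genes used exact sign-flip tests (numpy 2.4.6), with p-values adjusted in scipy 1.17.1. The alternatives were each replicate left out, arrays centred on medians, the 95th percentile of 125 probe sets of other-organ genes as the level, a trended robust prior, a pseudocount of 0.1, and the highest or lowest probe set of a gene. Text names every receptor probe set, the 3 probe sets nearest to the highest and to the lowest one, the 4 called probe sets per pathway list and the 3 per marker list with the largest absolute mean. Homer1, Plcb1, Adcy6, Rimkla, Rimklb, Sox9 and Camk2a were named after their values were seen. Gnb5 and Gng13, which had no call, were also named outside this rule. Members and lists were chosen with earlier results of these data known. Chip A had 12783 probe sets with 1 gene symbol, 312 with several and 2771 with none.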

Additional observations from a re-analysis of the deposited data

How the results depend on the processing

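No paired analysis was possible because the replicate numbers shared between groups join only chip A to chip B, and no test set one type against the other. The receptor pairs were taken within replicates throughout. The count of 1 receptor probe set called higher became 2 with arrays centred on their medians, where Grm8 1371243_at passed (0.40, limma adjusted p = 0.0273). Under each of the other alternatives it was 1. The count of 7 called lower stayed at 7 under all 8 alternatives. The count of pairs with 1 sign in every replicate used was 19 to 20 with a replicate left out and 19 under the other alternatives, but the pairs differed with the lowest probe set of a gene: 18 of them were shared with those of the median, and 2 of these had the opposite order. The mean log2 ratio of Grm2 turned sign without replicate 2 (0.041), without replicate 3 (0.031) and after centring (0.0031), was -0.40 without replicate 4, and that of Grm8 1371242_at turned with the panel's percentile as the level (-0.025), none with a call. Grm3 ran from 2.20 above the panel's percentile to 2.63 without replicate 4, called under each of the 8. Of 88 single values under alternatives, 83 kept their direction and their side of the threshold. Over all of chip A, 1462 probe sets were higher and 4768 lower than a ratio of 1, 1878 and 3689 after centring, and 969 and 7495 against the panel's percentile. No signal over background is known for ratios, so dim and absent receptors cannot be told apart.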
